A study of Mus musculus with 12 samples.

Results

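The genes described here are 10 transporters, channels and enzymes through which colonocytes, the absorptive cells that line the colon, move salt, acid and water. They were taken by gene symbol from the 54532 genes in the count files, and all 10 were among the 17658 genes with enough counts to be tested. Slc26a3 and Slc9a3 are the apical exchangers that take up chloride and sodium. Car1 and Car4 are carbonic anhydrases, Aqp8 and Aqp4 are water channels, and Scnn1a, Scnn1b and Scnn1g are the alpha, beta and gamma subunits of the epithelial sodium channel ENaC. Atp12a is the catalytic subunit of the colonic proton-potassium pump.

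RNA was taken from the colon of male C57BL/6 mice, 3 per group of the 8 that each group held, which arrived at 6 weeks of age and were used after a week of adaptation. DSS (dextran sulfate sodium) damages the lining of the colon when drunk, and UA is ursolic acid, a plant triterpenoid. The DSS group drank 3% DSS for 5 days. The UA + DSS group also received UA by gavage at 200 mg/kg for 7 days from 24 hours before DSS, and the DSS + UA group received the same dose for 4 days from 3 days after DSS began. The paper's discussion gives longer courses of UA than its methods for both groups. The Con group drank no DSS. By the methods the Con and DSS groups were gavaged with the vehicle, where the labels call Con untreated. All 4 groups share strain and sex, and no transgene is involved. Libraries carry the name of their group and the labels' replicate number, as in DSS 2, and with 3 mice per group the spread between libraries limits every comparison.

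In the colon, electroneutral NaCl uptake couples a sodium-proton exchanger, mainly Slc9a3, to the chloride-bicarbonate exchanger Slc26a3, and carbonic anhydrase supplies the proton and the bicarbonate that they trade. Sodium that remains in the distal colon can be taken up by ENaC, which needs all of its subunits for full activity and is induced by aldosterone, while Atp12a takes up potassium in exchange for protons in the same stretch. These genes are not expressed evenly along the bowel, so the stretch of colon from which a piece was cut bears on their level. Bulk RNA was measured, in which fewer colonocytes and less RNA per colonocyte cannot be told apart.

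Upstream sequence was available for 6 of the 10 genes. The 250 bases before the RefSeq start are shown for Slc26a3, Car4 and Aqp8, whose levels moved together over the libraries, for Slc9a3, whose level followed another pattern, and for Scnn1g, which carried a call between groups. They are read 5′ to 3′ on the plus strand of GRCm38.p6, on which all 5 genes lie, and capitals mark a motif that was found. They lie at chr12:31437969-31438218 (Slc26a3), chr11:84957504-84957753 (Car4), chr7:123462044-123462293 (Aqp8), chr13:74121163-74121412 (Slc9a3) and chr7:121734229-121734478 (Scnn1g).
Slc26a3: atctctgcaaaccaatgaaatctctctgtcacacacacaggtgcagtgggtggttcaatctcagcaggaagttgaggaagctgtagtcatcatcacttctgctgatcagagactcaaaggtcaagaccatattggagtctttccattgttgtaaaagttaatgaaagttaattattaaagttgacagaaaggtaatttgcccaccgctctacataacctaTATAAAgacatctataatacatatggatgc
Car4: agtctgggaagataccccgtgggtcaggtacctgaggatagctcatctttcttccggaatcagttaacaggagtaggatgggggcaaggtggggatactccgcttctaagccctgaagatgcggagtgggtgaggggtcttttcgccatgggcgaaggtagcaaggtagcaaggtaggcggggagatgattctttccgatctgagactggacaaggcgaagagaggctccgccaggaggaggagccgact
Aqp8: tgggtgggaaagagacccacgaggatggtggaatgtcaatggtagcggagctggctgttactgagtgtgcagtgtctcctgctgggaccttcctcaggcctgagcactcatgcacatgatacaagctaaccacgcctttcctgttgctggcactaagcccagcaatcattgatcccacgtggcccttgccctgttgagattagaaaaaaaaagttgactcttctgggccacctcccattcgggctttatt
Slc9a3: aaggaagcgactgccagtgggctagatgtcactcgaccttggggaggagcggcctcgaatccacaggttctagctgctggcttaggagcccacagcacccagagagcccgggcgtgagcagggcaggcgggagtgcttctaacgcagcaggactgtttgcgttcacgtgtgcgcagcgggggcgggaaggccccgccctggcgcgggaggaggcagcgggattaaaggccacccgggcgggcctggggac
Scnn1g: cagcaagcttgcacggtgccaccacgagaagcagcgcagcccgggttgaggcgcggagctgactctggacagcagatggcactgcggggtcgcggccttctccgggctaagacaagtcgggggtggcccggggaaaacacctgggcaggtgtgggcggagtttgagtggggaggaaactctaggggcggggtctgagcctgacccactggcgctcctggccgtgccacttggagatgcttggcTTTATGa

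The windows differed in base composition. That of Slc26a3 was 38.8% G or C with 1 CpG, while those of Slc9a3 and Scnn1g were 67.6% and 65.2% with 19 and 16 CpGs. Aqp8 (52.4%, 5 CpGs) and Car4 (56.4%, 11 CpGs) lay between them, beside a median of 52.4% over 32851 RefSeq promoters. The genes whose levels moved together thus had windows of unlike base composition. Both strands of the windows were searched for TATAAA (the TATA box), TTTATG (bound by the caudal and posterior Hox homeodomain proteins) and CAAAGTCCA (bound by HNF4), and for the glucocorticoid response element, to which the mineralocorticoid receptor also binds. No match overlapped another. TATAAA stood at -30 to -25 from the start of Slc26a3 and TTTATG at -7 to -2 from that of Scnn1g, and the other 4 windows, that of Scnn1b included, held none of these letters. Of all promoters, 12.4% held TATAAA, 10.8% TTTATG, 0.384% CAAAGTCCA and 0.00913% the glucocorticoid response element in a window of that length. The RefSeq start of Slc26a3 lies 47348 bases inside the gene as GENCODE draws it, and the last 2 bases of its window and the last 3 of the Aqp8 window fall in a GENCODE exon.

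The genes lie at 12:31390871-31473917 (Slc26a3), 13:74121457-74169442 (Slc9a3), 3:14766216-14808368 (Car1), 11:84957786-84966044 (Car4), 7:123462291-123468004 (Aqp8), 18:15389496-15410982 (Aqp4), 6:125320659-125344943 (Scnn1a), 7:121865038-121918514 (Scnn1b), 7:121734479-121768475 (Scnn1g) and 14:56365068-56388550 (Atp12a) on GRCm38. Scnn1g and Scnn1b are neighbours, 96.6 kb apart. Exons of Atp12a overlap the antisense gene Gm10873, and since it is not known whether the counting used strand, reads of the pair cannot be told apart.

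Total counts were 15566216 to 19498383 per library (median 18569669). Values are CPM, that is, counts set to the same library size in all libraries after TMM scaling. A gene was called when its Benjamini-Hochberg adjusted p by the quasi-likelihood test of edgeR, over all tested genes in 1 fit of the 12 libraries, was under 0.05. Some libraries stood apart. DSS 3 held pancreatic enzyme genes at a summed 11241.5 CPM over 5 markers, against 30.6 and 86.7 CPM in the other DSS libraries. These markers summed to 554 CPM in Con 1 and to at most 192 CPM in the remaining libraries. DSS 1 held the prostate genes Pbsn (422 CPM) and Tgm4 (247 CPM), and DSS+UA 3 held Pbsn at 20.6 CPM, while Pbsn had at most 1 count in each of the other 10 libraries. DSS 2 held the neutrophil markers at a summed 15364 CPM, against at most 687 CPM in any other library. The defining epithelial markers (Epcam, Cdh1, keratins, Vil1 and claudins, 8 genes) summed to 10222 to 14196 CPM in Con, 6126 to 9185 CPM in DSS, 10569 to 12853 CPM in UA + DSS and 12329 to 17722 CPM in DSS + UA, so epithelium was present in every library.

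The pieces of colon did not match in position. Hoxb13, a homeobox gene of the most distal colon and rectum, stood at 542, 62.8 and 100 CPM in Con 1, 2 and 3 and at 216, 77.4 and 91.3 CPM in DSS 1, 2 and 3. In DSS + UA it stood at 329, 478 and 433 CPM, and in UA + DSS at 0.385, 0.0625 and 13.2 CPM, which are 6, 1 and 248 counts. Every UA + DSS library was thus below every other library for Hoxb13. A position score, the mean log2 CPM of the distal genes Hoxd10 to Hoxd13 minus that of the more proximal genes Hoxb3 to Hoxb8, also put every UA + DSS library below all others, although Con 2 was close to them. It was -4.80, -5.28 and -5.24 in UA + DSS and 3.18, 3.22 and 4.19 in DSS + UA. In DSS it was 2.18, 0.48 and -1.02, and in Con 4.76, -4.73 and -3.56, so that Con 1 stood apart from Con 2 and Con 3. The low scores of Con 2 and Con 3 came with at most 0.588 CPM of each of Hoxd10 to Hoxd13. Their Hoxb3 to Hoxb8 summed to 31.3 and 19.5 CPM, against 85.2 to 222 CPM in UA + DSS and 3.96 to 19.4 CPM in the other libraries, and both held Hoxb13, so the score and Hoxb13 place these libraries differently.

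Slc26a3, the chloride-bicarbonate exchanger whose loss causes congenital chloride diarrhoea, stood at 523.5, 1062 and 790 CPM in Con. It was at 155, 32.0 and 591 CPM in DSS, at 393, 256 and 490 CPM in UA + DSS and at 265, 469 and 304 CPM in DSS + UA. The DSS libraries were spread over a range that holds every value of both UA groups and 1 Con value. No Con library was as low as any library of either UA group.

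Slc9a3, the sodium-proton exchanger NHE3, stood at 34.9, 566 and 444 CPM in Con and at 29.0, 14.4 and 479 CPM in DSS. It was at 625, 666 and 711 CPM in UA + DSS and at 30.8, 52.8 and 23.0 CPM in DSS + UA. The gene had no intermediate value in any library. The 6 libraries at 14.4 to 52.8 CPM were those with a position score above 0 and the 6 at 444 to 711 CPM those with a score below 0, whatever their group. Hoxb13 did not split them in this way. DSS 2, in the low set, held Hoxb13 at 77.4 CPM, below DSS 3 (91.3 CPM) and Con 3 (100 CPM) in the high set.

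Car1, a cytosolic carbonic anhydrase, was the member with the highest level per kilobase of exon in each group. It stood at 769, 3796 and 1788 CPM in Con and at 546, 202 and 1644 CPM in DSS. It was at 6524, 9357 and 4602 CPM in UA + DSS and at 713, 685 and 878 CPM in DSS + UA. Every UA + DSS library was above every library of the other groups. Like Slc9a3, Car1 split without overlap by the sign of the position score, at 202 to 878 CPM above 0 and 1644 to 9357 CPM below 0. These are the same sets of libraries as for Slc9a3, which Hoxb13 did not separate. Of all tested genes 5.79% split in this way.

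Car4, the carbonic anhydrase anchored to the apical membrane, stood at 455, 559 and 434 CPM in Con and at 145, 29.2 and 299 CPM in DSS. It was at 440, 274 and 341 CPM in UA + DSS and at 150, 524 and 181 CPM in DSS + UA. All DSS libraries lay below all Con libraries, while both UA groups overlapped DSS. The libraries did not split by the position score, since both the highest DSS + UA value and the lowest DSS value came from libraries with a score above 0.

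Aqp8, a water channel of surface colonocytes, stood at 340, 965 and 723 CPM in Con and at 101, 8.32 and 201 CPM in DSS. It was at 476, 62.1 and 218 CPM in UA + DSS and at 77.7, 335 and 110 CPM in DSS + UA. All DSS and all DSS + UA libraries lay below all Con libraries, and UA + DSS lay across both. Over the 12 libraries the highest value was 116 times the lowest. Aqp4, a water channel of the basolateral membrane, stood at 326, 1168 and 843 CPM in Con and at 301, 72.9 and 627 CPM in DSS. It was at 433, 51.4 and 643 CPM in UA + DSS and at 559, 568 and 454 CPM in DSS + UA. Each pair of groups overlapped for Aqp4, and its lowest value was in UA+DSS 2 rather than in a DSS library.

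Scnn1a stood at 40.7, 106 and 104 CPM in Con and at 49.0, 19.2 and 56.5 CPM in DSS. It was at 58.4, 55.8 and 99.7 CPM in UA + DSS and at 44.4, 108 and 75.5 CPM in DSS + UA. All groups overlapped, and Scnn1a varied least of the members, by a factor of 5.6 from the lowest to the highest library. Scnn1b stood at 3.47, 3.77 and 4.81 CPM in Con and at 6.59, 0.751 and 4.01 CPM in DSS. It was at 11.8, 18.5 and 9.89 CPM in UA + DSS and at 3.84, 4.08 and 13.5 CPM in DSS + UA. Every UA + DSS library was above every Con and DSS library. Scnn1g stood at 0.466, 0 and 0.107 CPM in Con, where the 0 allows up to 0.166 CPM at a limit of 3 counts (counting error only), and at 8.76, 0.200 and 3.06 CPM in DSS. It was at 0.0642, 1.81 and 2.61 CPM in UA + DSS and at 5.21, 2.72 and 15.2 CPM in DSS + UA. Every DSS + UA library was above every Con and UA + DSS library, and DSS lay across all of them.

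The ENaC subunits were thus not expressed in step. Per kilobase of exon, Scnn1a averaged 20.2 ± 8.97 CPM in Con (SD, n = 3), Scnn1b 1.53 ± 0.268 CPM and Scnn1g 0.0638 ± 0.0815 CPM. In DSS + UA, where Scnn1g was highest, they averaged 18.3 ± 7.64, 2.72 ± 2.10 and 2.58 ± 2.22 CPM per kilobase. The alpha subunit was far above the others in each group, and Scnn1g had the lowest mean of all members per kilobase in each group, though its libraries overlapped those of Scnn1b in DSS and DSS + UA.

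Atp12a stood at 109, 4.49 and 9.95 CPM in Con and at 156, 16.0 and 26.7 CPM in DSS. It was at 2.57, 1.37 and 4.68 CPM in UA + DSS and at 101, 402 and 163 CPM in DSS + UA. Its highest library, DSS+UA 2, held 293 times the CPM of its lowest, UA+DSS 2. Apart from DSS 2 at 16.0 CPM, the libraries with a position score above 0 were at 101 CPM or more and those with a score below 0 at 26.7 CPM or less. Rodent prostate also expresses Atp12a. The library with the most Pbsn, DSS 1, held Atp12a at 156 CPM. DSS+UA 1 and DSS+UA 2, which held no count of Pbsn, held it at 101 and 402 CPM, and DSS+UA 3 at 163 CPM. The 8 listed prostate genes, Pbsn and Tgm4 among them, summed to 941 CPM in DSS 1. They summed to 86.6, 411 and 235 CPM in DSS+UA 1, 2 and 3, to 140 CPM in Con 1 and to at most 84.2 CPM in the other libraries. Whether prostate RNA has a part in the Atp12a values was not tested.

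**Figure D1:**
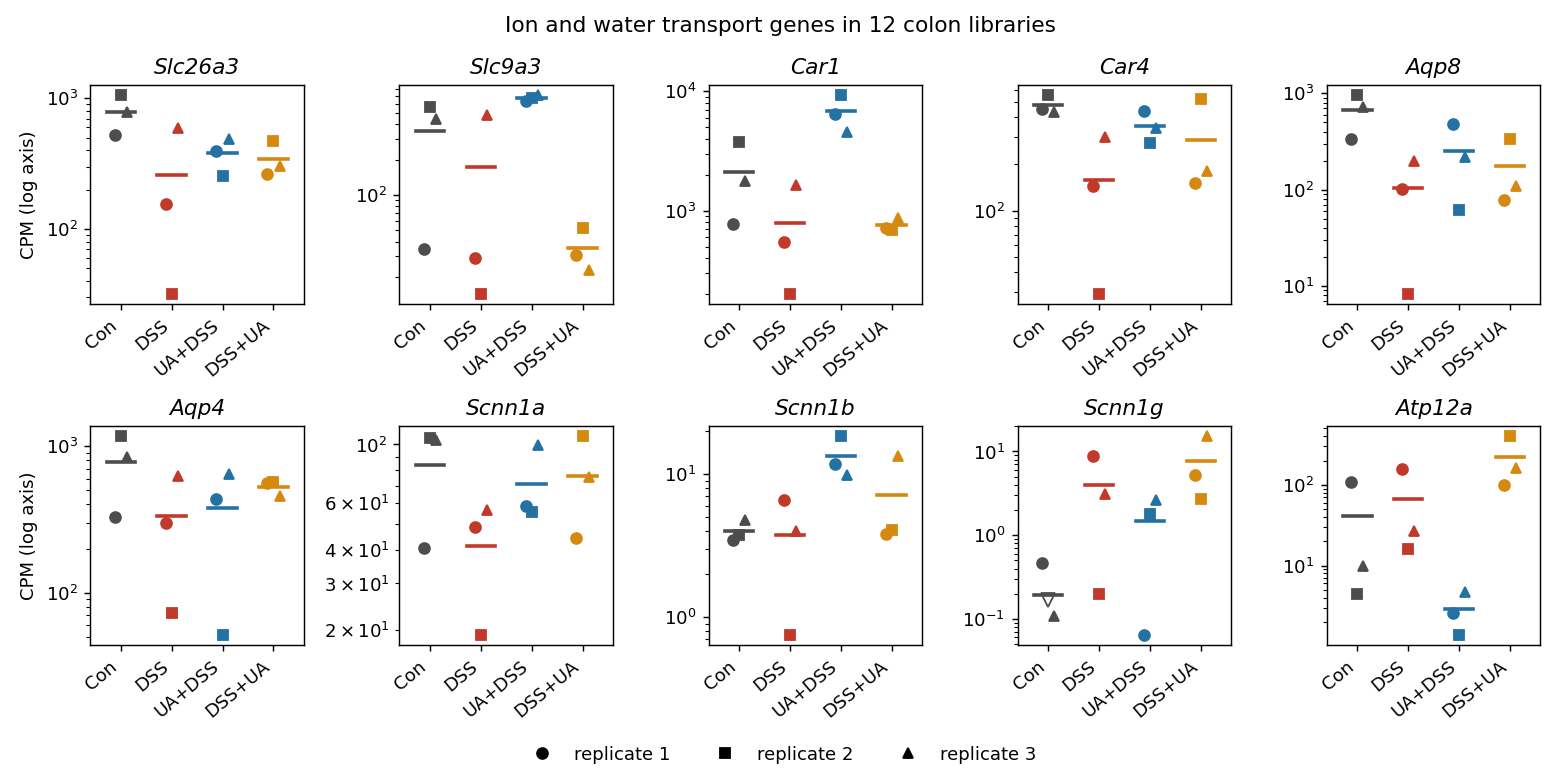
CPM of the 10 genes on log axes in the 12 libraries, by group, with a line at the mean of each group's 3 libraries and the open triangle at the limit of 3 counts for the Con library without a count of Scnn1g. Slc9a3 stands at 444 to 711 CPM or at 14.4 to 52.8 CPM with nothing between, and DSS 2 is the lowest library for 7 of the 10 genes.

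DSS against Con asks what the injury does to these genes. By fitted log2 fold change 8 of the 10 were lower in DSS and 2 (Scnn1g and Atp12a) higher, with Scnn1b turning from -0.08 to 0.47 when scaled by epithelial markers, but none was called by edgeR, where 26.5% of all tested genes were called. At an unadjusted p under 0.05 there were 3 (Car4 and Aqp8 lower, Scnn1g higher), and DESeq2 called the same 3, beside 40.6% and 32.3% of all tested genes by these criteria. The values of these 3 are given because DESeq2 called them. Car4 averaged 158 ± 135 CPM in DSS and 483 ± 66.7 CPM in Con, a log2 fold change of -1.61 (SE 0.69, edgeR adjusted p = 0.108). Aqp8 averaged 104 ± 96.3 and 676 ± 315 CPM, a log2 fold change of -2.71 (SE 1.05, edgeR adjusted p = 0.0797). Scnn1g averaged 4.01 ± 4.36 and 0.191 ± 0.244 CPM, a log2 fold change of 4.32 (SE 1.51, edgeR adjusted p = 0.0574). Groups did not overlap for 2 of the 10, Car4 and Aqp8, beside 41.3% of all tested genes, so the members did not stand out from the transcriptome by either count. Their median log2 fold change was -1.12, beside -0.03 over all tested genes.

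DSS 2 and DSS 3 carried much of this spread. DSS 2 was the lowest of the 12 libraries for 7 of the 10 genes (Slc26a3, Slc9a3, Car1, Car4, Aqp8, Scnn1a and Scnn1b), as it was for 17.8% of all tested genes, and it was the library with the most neutrophil transcripts. DSS 3 held the highest DSS value of 6 of those 7. It was the library with the most pancreatic transcripts and the only DSS library with a score below 0. Without DSS 3 edgeR called 4 of the 10 lower in DSS against Con (Slc26a3, Slc9a3, Car1 and Car4), beside 23.4% of the 18274 genes tested in that fit. Whether neutrophil or pancreatic RNA has a part in these values was not tested.

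UA + DSS against DSS asks what UA given from before the injury does. Of the 10 genes 2 were called, Car1 higher and Atp12a lower, beside 18.7% of all tested genes. The mean of Car1 was 6827 ± 2392 CPM under UA + DSS and 797 ± 753 CPM under DSS (SD, n = 3), a log2 fold change of 3.10 (SE 0.75, edgeR adjusted p = 0.0200). Atp12a averaged 2.87 ± 1.67 and 66.3 ± 78.0 CPM, a log2 fold change of -4.51 (SE 1.35, edgeR adjusted p = 0.0417). DESeq2, which called 25.5% of all tested genes here, also called Scnn1b higher, which averaged 13.4 ± 4.52 and 3.79 ± 2.93 CPM, a log2 fold change of 1.82 (SE 0.68, edgeR adjusted p = 0.0820). Groups did not overlap for 4 of the 10 (Slc9a3, Car1, Scnn1b and Atp12a), beside 42.8% of all tested genes. Slc26a3, Car4, Aqp8, Aqp4 and Scnn1a, whose means were all lower in DSS than in Con, overlapped between UA + DSS and DSS.

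Car1 lost its call without DSS 1 (log2 fold change 2.88, edgeR adjusted p = 0.0686) and without UA+DSS 2 (2.80, adjusted p = 0.0806). These fits called 9.45% and 1% of the genes tested in them, beside 18.7% in the main fit. The fits without 1 library in which Atp12a lost its call called 1% to 16.6%. Atp12a lost its call without DSS 1, the library with the most prostate transcripts (-2.88, edgeR adjusted p = 0.147), and without DSS 2 (-4.98, adjusted p = 0.0581). The call was also lost without UA+DSS 1 (-4.44, adjusted p = 0.112), UA+DSS 2 (-4.18, adjusted p = 0.153) or UA+DSS 3 (-5.07, adjusted p = 0.0964). The same held without DSS+UA 1 (adjusted p = 0.0548) or DSS+UA 3 (adjusted p = 0.0605). Over all alternatives the edgeR or DESeq2 adjusted p ranged from 6.10e-05 to 0.731 for Car1 and from 0.00215 to 0.924 for Atp12a. Without DSS 3 edgeR called 4 members in this comparison, with Slc26a3, Slc9a3 and Car1 higher and Atp12a lower, beside 19.7% of the genes tested in that fit.

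DSS + UA against DSS asks what UA given after the onset of injury does. None of the 10 genes was called by edgeR or by DESeq2, beside 7.54% and 17.7% of all tested genes. None had an unadjusted p under 0.05 by edgeR, beside 29.9% of all tested genes. The groups overlapped for all 10, where 34.7% of all tested genes were without overlap. The mean of Car4 was 285 ± 207 CPM under DSS + UA and 158 ± 135 CPM under DSS, that of Aqp8 174 ± 140 and 104 ± 96.3 CPM, and that of Slc26a3 346 ± 108 and 259 ± 294 CPM. These differences are within the spread of 3 libraries.

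Against Con, 0 of the 10 were called in UA + DSS by edgeR, which called 1 gene in all (0.00566%). DESeq2 called 0 members, beside 2.13% of all tested genes. At an unadjusted p under 0.05 by edgeR there were 3 members (Car1, Scnn1b and Atp12a), beside 12.1% of all tested genes. Groups did not overlap for 4 of the 10, with Slc26a3 lower and Slc9a3, Car1 and Scnn1b higher in UA + DSS, beside 20.6% of all tested genes. In DSS + UA 1 member was called, beside 18.1% of all tested genes. Scnn1g averaged 7.73 ± 6.63 CPM in DSS + UA and 0.191 ± 0.244 CPM in Con, a log2 fold change of 5.27 (SE 1.55, edgeR adjusted p = 0.0404). DESeq2, which called 26.4% of all tested genes here, also called Slc9a3 lower, at 35.5 ± 15.4 and 348 ± 278 CPM (log2 fold change -3.30, SE 1.26, edgeR adjusted p = 0.0897). Groups did not overlap for 3 of the 10 (Slc26a3, Aqp8 and Scnn1g), beside 38.9% of all tested genes. Fits without 1 library that lost the call of Scnn1g called 5.81% to 17.8% of the genes tested in them. That call rests on 11 counts over the Con group. It was lost without Con 1 (log2 fold change 6.99, adjusted p = 0.0517), Con 2 (4.72, adjusted p = 0.107) or Con 3 (4.99, adjusted p = 0.123), without DSS 3 (adjusted p = 0.0519), UA+DSS 2 (adjusted p = 0.0583) or UA+DSS 3 (adjusted p = 0.0570) and without DSS+UA 1 (5.50, adjusted p = 0.0680), DSS+UA 2 (5.68, adjusted p = 0.0527) or DSS+UA 3 (4.32, adjusted p = 0.119), with a range over all alternatives of 0.00384 to 0.157.

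The 2 UA schedules differed for 2 of the 10 genes, beside 16.8% of all tested genes. In DSS + UA against UA + DSS, Car1 was lower, at 759 ± 104 against 6827 ± 2392 CPM (log2 fold change -3.17, SE 0.75, edgeR adjusted p = 0.0198). Atp12a was higher, at 222 ± 159 against 2.87 ± 1.67 CPM (log2 fold change 6.26, SE 1.45, edgeR adjusted p = 0.0192). DESeq2, which called 24.6% of all tested genes here, also called Slc9a3, at 35.5 ± 15.4 against 668 ± 43.2 CPM (log2 fold change -4.23, SE 1.32, edgeR adjusted p = 0.0513). Groups did not overlap for 4 of the 10 (Slc9a3, Car1, Scnn1g and Atp12a), beside 45.3% of all tested genes. Fits without 1 library that lost the call of Car1 or Atp12a called 3.07% to 11.4% of the genes tested in them. Car1 lost its call without UA+DSS 2 (adjusted p = 0.0716), DSS+UA 1 (0.0628 adjusted), DSS+UA 2 (0.0602 adjusted) or DSS+UA 3 (0.0676 adjusted). Atp12a lost it without UA+DSS 1 (adjusted p = 0.0679), UA+DSS 2 (0.0869 adjusted) or UA+DSS 3 (0.0528 adjusted), while edgeR called Slc9a3 without Con 1 (adjusted p = 0.0321), DSS 1 (0.0466 adjusted), DSS 2 (0.0349 adjusted) or DSS 3 (0.0155 adjusted). Over all alternatives the adjusted p ranged from 3.92e-05 to 1.00 for Car1, from 1.22e-05 to 1.00 for Atp12a and from 0.00102 to 1.00 for Slc9a3. These are also the groups that lay farthest apart in position, with no overlap in Hoxb13 or in the score.

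**Figure D2:**
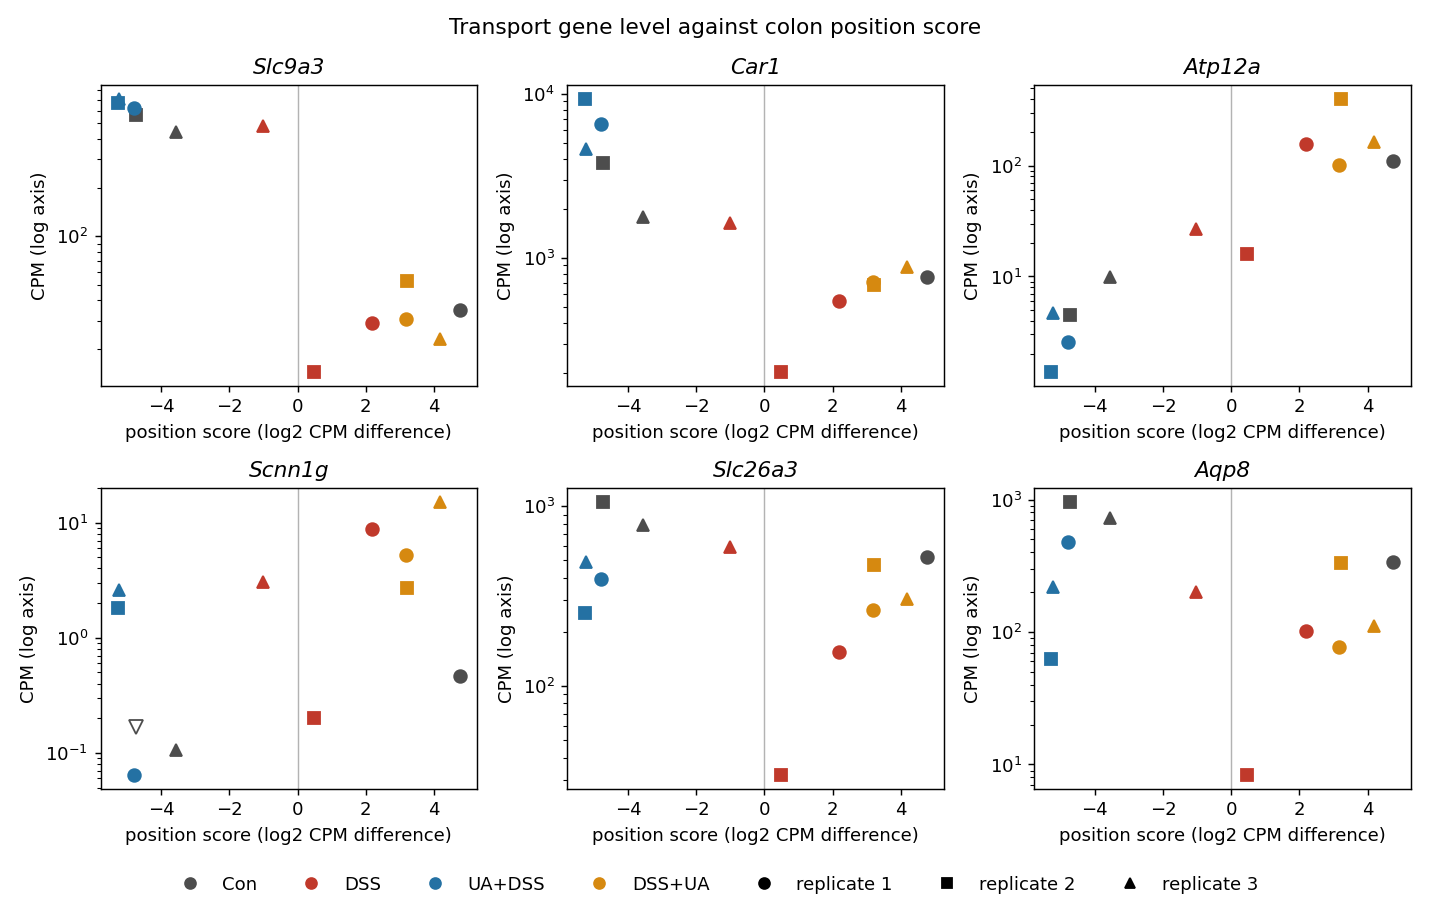
CPM (log axis) of 6 of the genes in each library against the position score, a difference of log2 CPM that is high where Hoxd10 to Hoxd13 exceed Hoxb3 to Hoxb8, with groups in colour and replicates by shape. Slc9a3 and Car1 separate at a score of 0 without overlap, and Slc26a3 and Aqp8 overlap across the score. Atp12a runs the other way except in DSS 2, whose score is above 0 but whose level lies within that of the libraries below 0.

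Position was then entered as a covariate. With the Hoxb13 level or the position score in the model, edgeR called 0 of the 10 genes in each of the 6 comparisons. The shares of all tested genes called close this paragraph. At most 2 members had an unadjusted p under 0.05 in any comparison, a count for which the share over all genes was not taken. A DESeq2 fit with these covariates was not run. For Car1 in UA + DSS against DSS the log2 fold change went from 3.10 to 1.41 with Hoxb13 (SE 1.07, edgeR adjusted p = 0.731) and to 1.89 with the score (SE 0.71, edgeR adjusted p = 0.144). For Atp12a it went from -4.51 to 1.07 (SE 2.45) and -1.37 (SE 1.05), so its sign turned with Hoxb13. In DSS + UA against UA + DSS, Car1 went from -3.17 to -1.02 and -1.12, Atp12a from 6.26 to -0.39 and 2.11, and Slc9a3 with the score from -4.23 to 0.15. Because Hoxb13 separates UA + DSS from all other libraries, the group and the position cannot be told apart in comparisons with UA + DSS, and the SE of Atp12a rose from 1.35 to 2.45. In all, edgeR called 0 genes with Hoxb13 and 180 (1.02%) with the score in UA + DSS against DSS. In DSS against Con it called 4148 (23.5%) and 5466 (31%). The shares were 1.14% and 1.65% in DSS + UA against DSS and 10.6% and 14.2% in DSS + UA against Con. In UA + DSS against Con both were 0%, and in DSS + UA against UA + DSS they were 0% and 0.0113%.

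The slope of each gene on position within the groups was estimated in the same model. No member was called for Hoxb13, where 3 genes (0.017% of those tested) were, Hoxb13 itself among them. At an unadjusted p under 0.05 by edgeR there was 1 member, Atp12a, beside 2.76% of all tested genes. Its slope was 0.76 log2 units per log2 unit of Hoxb13 (SE 0.25, edgeR adjusted p = 0.9998). Without UA+DSS 3 the slope of Atp12a was 1.54 (SE 0.19, edgeR adjusted p = 0.0393). That library held 248 counts of Hoxb13, against 6 and 1 in the others of its group, so leaving it out also changes the range of Hoxb13. For the score, 0 of the 10 were called beside 2.21% of all tested genes, and 3 had an unadjusted p under 0.05, beside 20% of all tested genes. The slopes were 0.49 for Atp12a (SE 0.11, edgeR adjusted p = 0.0607), -0.51 for Slc9a3 (SE 0.15, edgeR adjusted p = 0.103) and -0.24 for Car1 (SE 0.09, edgeR adjusted p = 0.191). On Hoxb13 the slope was -0.17 for Slc9a3 (SE 0.29, edgeR unadjusted p = 0.563) and -0.25 for Car1 (SE 0.15, edgeR unadjusted p = 0.134).

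**Figure D3:**
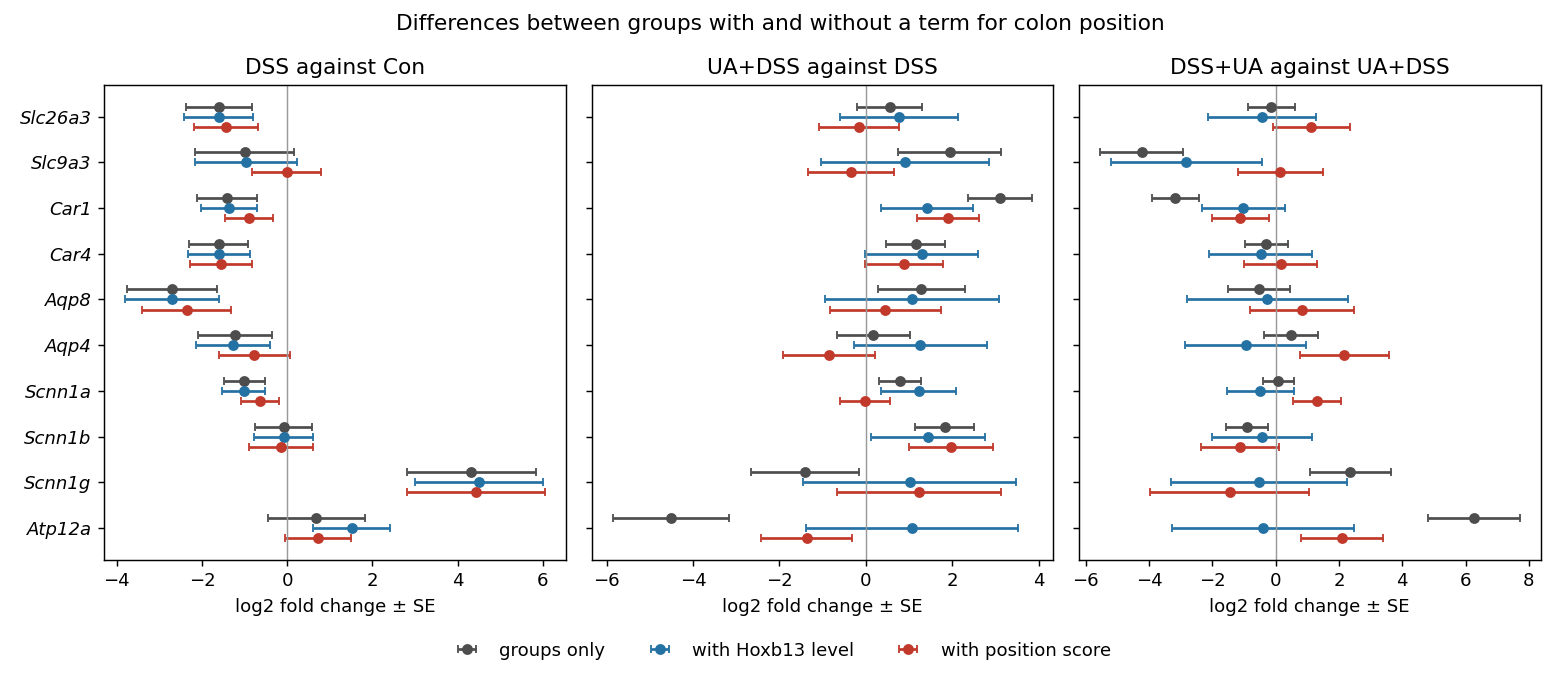
Log2 fold change ± SE of the 10 genes in 3 comparisons from the edgeR fit with groups only, with the Hoxb13 level and with the position score. In DSS against Con the 3 estimates lie close together for Slc26a3, Car4 and Aqp8, while for Car1 and Atp12a in both comparisons with UA + DSS the estimates with a position term lie nearer to 0.

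In DSS against Con, the log2 fold changes with Hoxb13 or the score in the model were close to those without for Slc26a3 (-1.61 with groups only, then -1.61 and -1.44) and Car4 (-1.61, then -1.61 and -1.55). For Slc9a3 the score took the log2 fold change to -0.02. None of these passed the test under any of these models.

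The 12 libraries placed the members in sets. By Pearson's r of log2 CPM, Slc26a3, Car4 and Aqp8 were most like each other (r = 0.93 to 0.94, n = 12 libraries), and Slc9a3 and Car1 were like each other (r = 0.91). Atp12a ran against the latter pair (r = -0.79 and -0.77). These values describe likeness only, since groups, position and the low library DSS 2 enter each of them. Without DSS 2, r was 0.82 to 0.85 within the first set, 0.89 for Slc9a3 with Car1, and -0.91 and -0.97 for Atp12a with these. For Scnn1g with Aqp8, r went from -0.34 to -0.83 without DSS 2, so this value depends strongly on 1 library. Scnn1g had 0, 2 and 1 counts in Con 2, Con 3 and UA+DSS 1, where its log2 CPM rests largely on the prior count. The ENaC subunits were not like each other in their pattern (r = 0.51 for Scnn1a with Scnn1b, 0.35 for Scnn1b with Scnn1g and 0.01 for Scnn1a with Scnn1g). Without DSS 2 these were -0.0047, 0.22 and -0.27.

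**Figure D4:**
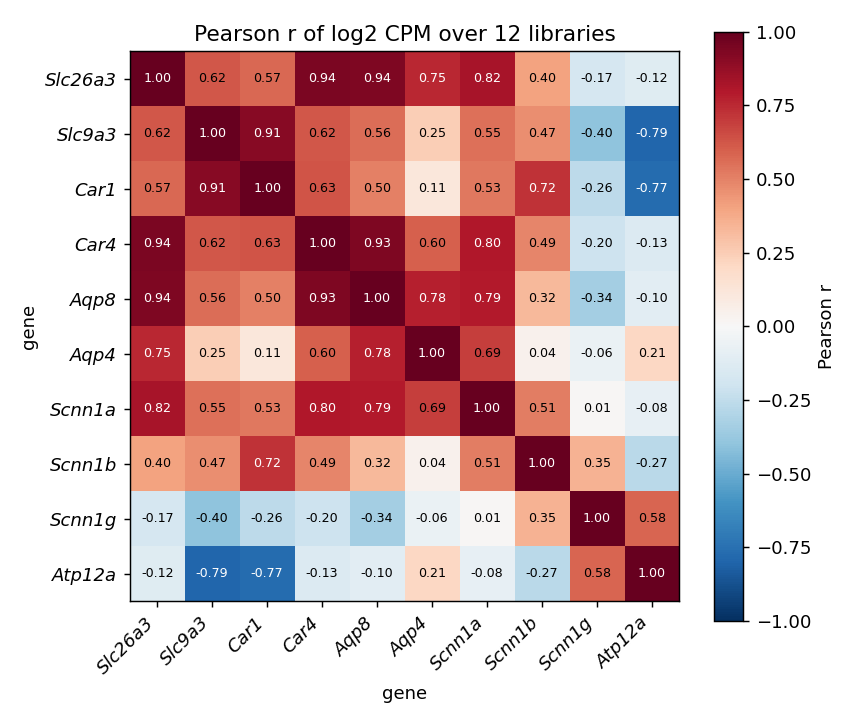
Pearson's r of log2 CPM between each pair of the 10 genes over the 12 libraries, printed in each cell and coloured from -1 to 1. Slc26a3, Car4 and Aqp8 form one set at r of 0.93 to 0.94, Slc9a3 and Car1 another at 0.91, and Atp12a is negative to the latter.

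Among the other tested genes whose log2 CPM averaged 3 or more, those most like Car4 were Slc5a8 (r = 0.98), the sodium-coupled transporter of short-chain fatty acids, and Klf4 (r = 0.97), a transcription factor of differentiated epithelium. Those most like Car1 were Myo19 (r = 0.98), a mitochondrial myosin, and Gcnt3 (r = 0.97), a mucin-type glycosyltransferase. Slc26a3 was most like Gtf2ird1 and Tpcn1 (r = 0.95 for both), Aqp8 most like Homez and Rasd2 (r = 0.95 for both) and Slc9a3 most like Mfhas1 (r = 0.97) and Igf2bp2 (r = 0.96). Aqp4 was most like Gpsm2 (r = 0.95) and C1qtnf6 (r = 0.92). Scnn1a was most like Slc39a11 and Cnnm4 (r = 0.94 for both), Scnn1b most like Angel1 (r = 0.91) and Wars2 (r = 0.89) and Scnn1g most like the chaperone gene Hsp90ab1 and the purine synthesis gene Adsl (r = 0.93 for both). Atp12a was most like the phospholipase gene Pla2g4f (r = 0.97) and the purine synthesis gene Paics (r = 0.96). Each r is over 12 libraries and was picked as the highest over all those genes.

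Of 56 further genes of colonic salt and water transport, in 6 lists, 52 were tested. In DSS against Con, 5 were higher and 14 lower (36.5% of the 52, beside 26.5% of all tested genes), with a median log2 fold change of -0.53. In UA + DSS against DSS, 11 were higher and 3 lower (26.9%, beside 18.7%), and in DSS + UA against DSS 3 were higher and 1 lower (7.69%, beside 7.54%). In UA + DSS against Con edgeR called 0 of the 52. At an unadjusted p under 0.05 there were 8, and DESeq2 called 3, beside 12.1% and 2.13% of all tested genes. In DSS + UA against Con 2 were higher and 5 lower (13.5%, beside 18.1%), and in DSS + UA against UA + DSS 1 was higher and 12 lower (25% beside 16.8%).

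The NaCl and bicarbonate transporters held 5 lower and 0 higher of 10 in DSS against Con. Slc26a2, a sulfate transporter, averaged 235 CPM in DSS and 711 CPM in Con (log2 fold change -1.60, SE 0.37, edgeR adjusted p = 0.0113), and Slc9a2, the exchanger NHE2, 72.8 and 335 CPM (log2 fold change -2.20, SE 0.56, edgeR adjusted p = 0.0169). Both were called higher in UA + DSS than in DSS, by log2 fold changes of 1.51 and 2.39. Neither was called with a position term in the model (edgeR adjusted p = 0.590 and 0.643 with Hoxb13, and 0.158 and 0.156 with the score). Of all tested genes, edgeR called 0% with Hoxb13 and 1.02% with the score in this comparison, so the lost calls are not particular to these genes. Of 8 other carbonic anhydrases, 2 were lower and 0 higher, namely Car2, the cytosolic isozyme with the highest turnover, at 336 and 1044 CPM (log2 fold change -1.63, SE 0.34, edgeR adjusted p = 0.00746) and the scarce Car7 at 0.519 and 1.79 CPM (log2 fold change -1.78, SE 0.53, edgeR adjusted p = 0.0305). Of 4 other aquaporins, 2 were higher and 1 lower in DSS. Aqp3, a water and glycerol channel, averaged 2.58 CPM in DSS and 0.126 CPM in Con (log2 fold change 4.29, SE 0.92, edgeR adjusted p = 0.00808), and Aqp11, an intracellular channel, 10.5 and 26.6 CPM (log2 fold change -1.34, SE 0.27, edgeR adjusted p = 0.00674). Both turned in UA + DSS against DSS, with Aqp3 called lower and Aqp11 called higher. Neither call held with Hoxb13 (edgeR adjusted p = 0.632 and 0.590) or the score (0.200 and 0.0691 adjusted) in the model, beside the same 0% and 1.02% of all tested genes.

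Of 10 regulators of ENaC, 1 was higher and 2 lower in DSS against Con. Nr3c2, the mineralocorticoid receptor through which aldosterone acts, averaged 36.0 CPM in DSS and 108 CPM in Con (log2 fold change -1.58, SE 0.31, edgeR adjusted p = 0.00608), and Prss8, a protease that cleaves the gamma subunit, 25.2 and 66.4 CPM (log2 fold change -1.40, SE 0.36, edgeR adjusted p = 0.0172). Nr3c2 was called higher in UA + DSS than in DSS (105 CPM, log2 fold change 1.54, SE 0.31, edgeR adjusted p = 0.0131). It was not called with Hoxb13 (edgeR adjusted p = 0.599) or the score (0.0931 adjusted) in the model, where 0% and 1.02% of all tested genes were called. Of 10 genes of the sodium pump and the potassium channels, 1 was higher and 3 lower in DSS against Con. Kcnk5, a potassium channel, averaged 26.2 and 64.0 CPM (log2 fold change -1.29, SE 0.20, edgeR adjusted p = 0.00300), and Atp1b3, a beta subunit of the sodium pump, 139 and 71.1 CPM (log2 fold change 0.97, SE 0.17, edgeR adjusted p = 0.00426). Of 10 genes of anion secretion, 1 was higher and 1 lower. Clca4b averaged 331 CPM in DSS and 4.19 CPM in Con (log2 fold change 6.30, SE 1.09, edgeR adjusted p = 0.00410), and Ano1, a calcium-activated chloride channel, 58.4 and 133 CPM (log2 fold change -1.18, SE 0.23, edgeR adjusted p = 0.00588). Neither Clca4b (log2 fold change -0.45, edgeR adjusted p = 0.751) nor Ano1 (-0.06, edgeR adjusted p = 0.878) was called in UA + DSS against DSS.

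Summed markers of colonocytes and of other cell types differed in level between the groups. The 8 surface colonocyte genes summed to 7812 to 15388 CPM in Con, 3279 to 7805 CPM in DSS, 14294 to 16403 CPM in UA + DSS and 7584 to 17400 CPM in DSS + UA. The 4 fibroblast genes summed to 973 to 1684 CPM in Con, 2964 to 6584 CPM in DSS, 535 to 1534 CPM in UA + DSS and 882 to 2212 CPM in DSS + UA. The 4 neutrophil genes summed to 0.998 to 1.98 CPM in Con, 526 to 15364 CPM in DSS, 11.03 to 56.5 CPM in UA + DSS and 119 to 618 CPM in DSS + UA. The 4 macrophage genes summed to 114 to 310.4 CPM in Con, 845 to 1396 CPM in DSS, 207 to 483 CPM in UA + DSS and 295 to 846 CPM in DSS + UA. Of the sums just given, those of surface colonocyte, neutrophil and macrophage genes did not overlap between DSS and either Con or UA + DSS. For surface colonocyte genes the margin between DSS and Con was narrow. Fibroblast sums did not overlap between DSS and any other group. The 5 smooth muscle genes summed to 1084 to 3453 CPM in Con, 658 to 1448 CPM in DSS, 1122 to 2428 CPM in UA + DSS and 435 to 863 CPM in DSS + UA. The 5 goblet cell genes summed to 4894 to 9854 CPM in Con, 508 to 5144 CPM in DSS, 8641 to 9281 CPM in UA + DSS and 3059 to 8019 CPM in DSS + UA. Scaling by the epithelial markers in place of all genes put the median log2 fold change of all tested genes at 0.62 in DSS against Con, at -0.66 in UA + DSS against DSS and at -0.80 in DSS + UA against DSS, where it was -0.03, -0.02 and 0.02 with TMM. With the library size alone the last 2 medians were -0.12 and -0.11. Scaled by the epithelial markers, Aqp8 and Car4 in DSS against Con had log2 fold changes of -2.19 and -1.11 and Car1 in UA + DSS against DSS one of 2.65. What part the amount of epithelium or of the other cells has in these levels was not tested.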

How the data were processed

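Colon RNA of 12 mice, 3 per group, was measured by RNA-seq. The deposited files hold whole-number counts of reads per Ensembl gene, not normalized, which the authors took from Hisat2 after mapping to GRCm38. FastQC, HISAT2 and Cuffdiff are named in the submitters' processing notes. Nothing used here gives their versions, the annotation release, the use of strand or how reads matching more than 1 gene were counted. The labels name Trizol for the extraction where the methods name the RNeasy kit, and the methods count 3 colon tissues per group, read here as 3 mice. If replicates shared an animal, p-values would measure technical spread.

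Each file lists 54532 genes, of which 123 carry no symbol in the annotation used here (GENCODE release on GRCm38). Of these, filterByExpr of edgeR 4.0.16 (R 4.3.3) kept 17658, with 99.8% of the counts. After TMM scaling (factors 0.871 to 1.09), a single quasi-likelihood model with robust dispersions was fitted to all libraries (common biological coefficient of variation 0.352). A gene was called at a Benjamini-Hochberg adjusted p under 0.05 across the 17658. Log2 CPM used a prior count of 2. Position was the log2 CPM of Hoxb13 or a score over other Hox genes. Figures and summaries were made in Python 3.11.15 with numpy 2.4.6, pandas 2.3.3 and matplotlib 3.10.9.

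The 10 genes, the lists and the tests were chosen with earlier results of these data known. The text names the 10 genes, gives fold changes for those called (and those called by DESeq2), names up to 2 genes of each transport list by the smallest p in DSS against Con and the 2 genes most like each member. Alternatives were DESeq2 1.42.0, scaling by library size alone or by epithelial genes, omitting the filter or requiring 10 counts per library, fitting only the pair of groups under comparison, a block for the replicate number, a position covariate, leaving out each library and, chosen after seeing the data, leaving out the 2 libraries with most Pbsn. Promoter windows are from RefSeq (GRCm38.p6). Those of Car1, Aqp4, Scnn1a and Atp12a were not used here.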

Additional observations from a re-analysis of the deposited data

Results flagged for a closer look

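The UA + DSS and DSS + UA groups differed from the same DSS libraries by different amounts for Car1 and Atp12a, as a test of that difference shows. For Car1, DSS + UA minus UA + DSS was a log2 difference of -3.17 (edgeR adjusted p = 0.0198), with all 3 DSS + UA libraries below all 3 UA + DSS libraries. For Atp12a it was 6.26 (edgeR adjusted p = 0.0192), with all 3 DSS + UA libraries above all 3 UA + DSS libraries. Both comparisons use the same DSS libraries. Hoxb13, which marks the distal end of the colon, differed between the 2 groups in the same comparison by a log2 difference of 6.48 (SE 1.51, edgeR adjusted p = 0.0196), and position and schedule cannot be told apart here.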

How the results depend on the processing

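Counts of the 10 genes called depended on the processing, and so did the share of all tested genes called. In DSS against Con, 0 became 3 with DESeq2 and 1 when scaled by epithelial genes. These settings called 32.3% and 37.5% of all tested genes, beside 26.5% in the main fit. In UA + DSS against DSS, 2 became 0 without a filter, with either position covariate or without the 2 libraries with most Pbsn. The count became 1 in the fit of 2 groups and 3 with DESeq2. Of all tested genes, 7.3% were called without a filter, 0% with Hoxb13, 1.02% with the score and 5.57% without those libraries. The share was 12.4% in the fit of 2 groups and 25.5% with DESeq2, beside 18.7% in the main fit. In DSS + UA against Con, 1 became 2 with DESeq2, which called 26.4% of all tested genes, beside 18.1% in the main fit. The count became 0 when scaled by epithelial genes (7.56% of all genes called) or without a filter (7.03%). It was also 0 with Hoxb13 (10.6%) or the score (14.2%) as covariate, or without the 2 libraries with most Pbsn (2.93%). Requiring at least 10 counts in every library (19.5%) left out Scnn1g, the member called in the main fit. The count of 0 in that setting is thus not a test of Scnn1g. In DSS + UA against UA + DSS, 2 became 0 without a filter (6.69% of all genes called) or without the 2 libraries with most Pbsn (1.2%). The count was also 0 with Hoxb13 (0%) or the score (0.0113%) as covariate. It became 3 with DESeq2 (24.6%), with at least 10 counts in every library (20.2%) or in the fit of 2 groups (26.1%), beside 16.8% in the main fit. Leaving out 1 library at a time gave 0 to 4, 0 to 4, 0 to 1 and 0 to 3 called genes in these comparisons. The shares of all genes called then ran from 15.8% to 25.7%, 1% to 22.7%, 5.81% to 22.4% and 3.07% to 21.5%. No member was called in DSS + UA against DSS (0.137% to 10.1% of all genes) or in UA + DSS against Con (at most 0.0219%). With a slope on Hoxb13 the count was 0 to 1, where the 1 is Atp12a without UA+DSS 3. Signs reversed for Atp12a with Hoxb13 as covariate (1.07 in UA + DSS against DSS and -0.39 in DSS + UA against UA + DSS) and for Slc9a3 in DSS + UA against UA + DSS with the score (0.15). The cause was not tested.

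Replicate numbers did not pair the samples (same-number deviations correlated at -0.22 to 0.19, and 5 of 12 samples were most like one of their own number). With the replicate number as a block, 1 member was called in UA + DSS against DSS and 0 members in DSS + UA against Con. Of all tested genes, 17.8% and 16.5% were called there, beside 18.7% and 18.1% in the main fit. The count of members called was the same as in the main fit in the other comparisons. Scnn1g and Scnn1b had few counts, which limits them more than the other genes.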
